A study of Homo sapiens with 6 samples.

Results

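The miRNAs of the miR-15/16 loci and of the miR-195 and miR-497 locus were measured here by the 7 probes named hsa-miR-15a-5p, hsa-miR-15b-5p, hsa-miR-15b-3p, hsa-miR-16-5p, hsa-miR-16-2-3p, hsa-miR-195-5p and hsa-miR-497-5p, out of 2565 miRNA probes on the array. They were chosen by name from the scanner output, and each name matched 1 probe. The samples were Panc-1, a long-established cell line derived from human pancreatic ductal adenocarcinoma, kept for 72 h either with no TGF-β (control, 3 arrays) or with TGF-β at 10 ng/mL (3 arrays). The labels name no other agent and no genetic change in either group. Total RNA was labelled with Cy5 and read on 1-colour 3D-Gene miRNA arrays (Toray), so that each array gave 1 spot intensity per miRNA. The labels do not say whether the 3 samples of a group came from separate cultures, so p-values measure only the spread between these samples, which may be technical. The control samples shared 1 slide and the TGF-β samples another, so treatment cannot be told apart from slide.

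The miR-15/16 family is a set of related small RNAs made from paired precursors that sit close together in the genome. A mature miRNA of this family guides Argonaute to messenger RNAs that pair with its seed, the stretch near its 5′ end, and its known targets include the apoptosis inhibitor BCL2 and cyclins of the G1 phase. The pair within DLEU2 is often deleted in chronic lymphocytic leukaemia, and miR-195 and miR-497 form a pair of the same family. TGF-β is a cytokine that drives pancreatic cancer cells towards a mesenchymal state.

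The genes lie at 3 loci of GRCh38.p14 (RefSeq). MIR15A (chromosome 13, 50049119 to 50049201, minus strand) and MIR16-1 (50048973 to 50049061) are 57 bases apart within the lncRNA gene DLEU2. MIR15B (chromosome 3, 160404588 to 160404685, plus strand) and MIR16-2 (160404745 to 160404825) are 59 bases apart within the protein-coding gene SMC4, which encodes a condensin subunit. Both also lie within the lncRNA gene TRIM59-IFT80. MIR195 (chromosome 17, 7017615 to 7017701, minus strand) and MIR497 (7017911 to 7018022) are 209 bases apart within the lncRNA gene MIR497HG. The mature miR-16-5p is the same at MIR16-1 and MIR16-2, so its probe reads both loci at once, whereas miR-16-2-3p comes from MIR16-2 alone.

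All 7 members were found in RefSeq. Their mature sequences are shown because 5 of them share 1 seed while the other two, the 3p arms, do not. Each is written 5′ to 3′, with bases 2 to 8, the seed, in capitals.
miR-15a-5p: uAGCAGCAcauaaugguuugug
miR-15b-5p: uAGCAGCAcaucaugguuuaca
miR-16-5p: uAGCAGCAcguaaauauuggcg
miR-195-5p: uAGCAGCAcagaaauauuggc
miR-497-5p: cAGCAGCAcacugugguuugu
miR-15b-3p: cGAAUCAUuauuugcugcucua
miR-16-2-3p: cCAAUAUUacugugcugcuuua

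The search for the seed of the 5p members left out a chromosome. In the rest of the sequence table the seed occurred in 7 mature miRNAs, all of which had a probe. The 2 that are not members are miR-424-5p and miR-6838-5p.
miR-424-5p: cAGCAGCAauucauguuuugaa
miR-6838-5p: aAGCAGCAguggcaagacuccu
Beyond the seed the members were alike to different degrees. Compared position by position from the 5′ end, miR-16-5p and miR-195-5p had the same base at 19 of 21 positions, although they come from different loci. miR-15a-5p and miR-15b-5p shared 18 of 22 positions, miR-15a-5p and miR-497-5p 17 of 21, and miR-195-5p and miR-497-5p, which lie side by side, 12 of 21. How far each probe also binds its relatives was not tested.

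A spot was called detected when its signal exceeded the mean of the array's blank spots by more than 2 SD, a limit of 19.5 to 22.8 intensity units. All 7 members were detected on all 6 arrays, whereas 1282 of the 2565 miRNAs were. The weakest member spot, miR-16-2-3p on control array 1, stood 44.8 blank SDs above the blank mean. Across arrays the median miRNA spot gave 20.4 to 24.1 units and the blank mean was 18.2 to 21.3 units.

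The probe of miR-16-5p, the brightest of the 7, gave spot signals of 5086, 5457 and 6826 units in the control samples and of 4882, 5522 and 5276 units with TGF-β. It ranked between the 8th and the 12th brightest miRNA probe on every array. The median intensity recorded around the same spots, the local background, was 4763, 1628 and 4052 units in control and 4220, 2228 and 1848 units with TGF-β. The local background was therefore 0.298 to 0.936 of the signal of the spot it surrounds, although the blank mean was at most 21.3 units on any array.

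The same held for the bright spots in general. Over miRNA spots above 200 units, the local background was at a median of 0.990, 0.434 and 0.728 of the signal in the control samples and of 0.814, 0.478 and 0.594 with TGF-β. Both backgrounds are therefore given for every member: the level after subtraction of the blank mean is the reported one, and the level after correction with the local background stands beside it. Pairs of arrays correlated at 0.984 to 0.992 with the blank-spot background and at 0.627 to 0.970 with the local background, across 1282 miRNAs that are not independent of each other.

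**Figure D1:**
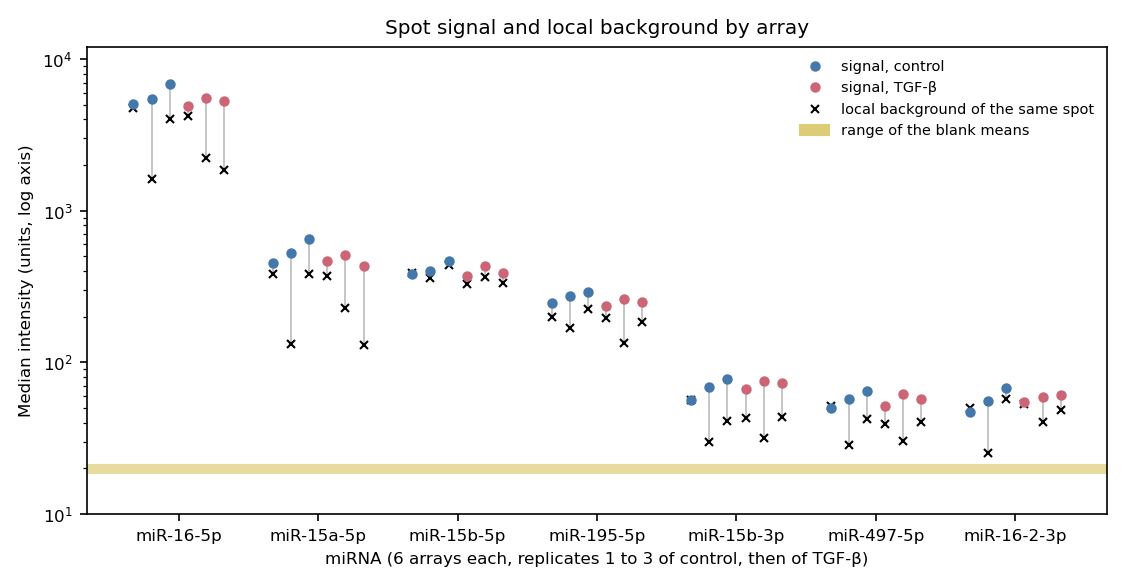
Median spot signal (circles, blue for control, red for TGF-β) and local background of the same spot (crosses) in intensity units on a log axis, for the 7 members on each of 6 arrays, with the range of the blank means as a band. miR-16-5p lies between 4882 and 6826 units and miR-16-2-3p between 47.4 and 68.1, and for miR-15b-5p on control array 1 the cross (391) lies above the circle (383).

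The first question was how far each member differed between control and TGF-β. With the blank-spot background and quantile normalization between arrays, miR-16-5p fell by 0.32 on the log2 scale and was the only 1 of the 7 members past an adjusted p of 0.05. The other members were not past it, with differences from -0.22 to 0.11. Of the 7 members, 1 was called, against 3.98% of all 1457 miRNAs tested (58, of which 38 were higher and 20 lower). The median difference was -0.11 over the members and -0.01 over all tested miRNAs, whose quartiles were -0.15 and 0.16. In 4 members the control and TGF-β arrays did not overlap, against 18.9% of the 1455 miRNAs with a value on all 6 arrays. This count held with quantile normalization: with the arrays scaled to a common median, groups were apart in 1 member, miR-16-5p, against 17.4% of 1455 miRNAs, and in the deposited values in 0 members, against 12.2% of the 1282 miRNAs with a value on all arrays. The members share sequence and loci, so their counts are not independent.

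miR-16-5p had log2 levels of 12.76, 12.53 and 12.53 in control and of 12.30, 12.25 and 12.30 with TGF-β. The groups did not overlap, with control array 1 the highest. The means were 12.61 ± 0.134 (SD, n = 3) and 12.29 ± 0.030 (SD, n = 3). The log2 difference was -0.32 with a standard error of 0.064 and a 95% interval from -0.46 to -0.18, a fold of 0.801 (limma, adjusted p = 0.0155). The exact permutation test over the arrays gave p = 0.1, 2-sided, which is the smallest that 3 arrays against 3 allow.

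The size of this fall depended on how arrays were put on 1 scale. The spot signals themselves overlapped between the groups. Scaled to a common median instead, the levels were 12.40, 12.52 and 12.51 in control and 12.35, 12.38 and 12.36 with TGF-β, which still did not overlap, but the difference was -0.11 and was not past the threshold (limma, adjusted p = 0.758). In the values the authors deposited, miR-16-5p was at 22423 ± 1353 units (SD, n = 3) in control and 22384 ± 3404 units (SD, n = 3) with TGF-β, and the groups overlapped. On that scale the median log2 difference over the 1402 miRNAs tested there was 0.11, and miR-16-5p was at -0.01. The call was also lost without control array 2 (limma, adjusted p = 0.0579) and without TGF-β array 1, 2 or 3 (0.0670, 0.0925 and 0.0770), at differences from -0.37 to -0.30.

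With the local background the log2 difference of miR-16-5p was -0.22 with a standard error of 1.01 and a 95% interval from -2.67 to 2.23 (limma, adjusted p = 0.992). Its levels were 10.67, 11.66 and 11.35 in control and 10.57, 11.10 and 11.35 with TGF-β, so that the groups overlapped. None of the 7 members was called on this background, where limma called 0% of the 1457 miRNAs and where 35 passed 0.05 before adjustment. With the blank-spot values the methods' t-test called 17 miRNAs, and miR-16-5p was not among them (adjusted p = 0.196).

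**Figure D2:**
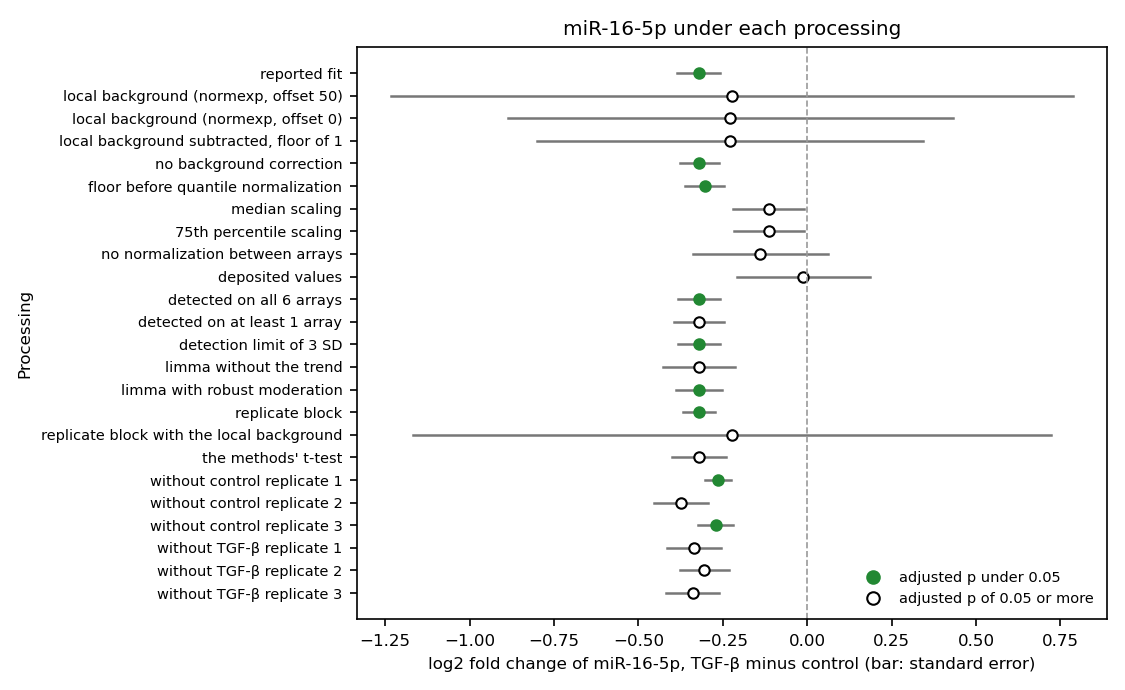
Log2 fold change of miR-16-5p, TGF-β against control, as reported and under each of 23 other ways of processing the arrays, with standard errors as bars and filled green points where the adjusted p is under 0.05. All 24 points lie below 0, from -0.37 to -0.01, and the 3 settings with the local background and the block on it have the widest bars.

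miR-15a-5p, the partner of miR-16-1 within DLEU2, gave signals of 455, 524 and 649 units in control and 465, 513 and 430 units with TGF-β. Its log2 levels were 8.99, 9.05 and 9.05 in control and 8.93, 8.84 and 8.67 with TGF-β. The groups did not overlap, and TGF-β array 3 was the lowest. The log2 difference was -0.22 with a standard error of 0.074 and a 95% interval from -0.38 to -0.05, and it was not past the threshold (limma, adjusted p = 0.197).

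The local background at the miR-15a-5p spot was uneven. It was 381, 132 and 385 units in control and 372, 227 and 130 units with TGF-β, from 0.252 to 0.838 of the signal. With it the log2 levels became 9.57, 8.38 and 8.28 in control and 8.04, 7.88 and 8.20 with TGF-β. The groups again did not overlap, and the log2 difference of -0.71 had a 95% interval from -3.13 to 1.71 (limma, adjusted p = 0.987).

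miR-15b-5p, made beside miR-16-2 within SMC4, gave signals of 383, 398 and 467 units in control and 370, 430 and 391 units with TGF-β. After blank subtraction its log2 levels were 8.70, 8.63 and 8.63 in control and 8.56, 8.53 and 8.53 with TGF-β. Every TGF-β array was below every control array, by a mean of 0.11 with a standard error of 0.061 (95% interval of the difference -0.25 to 0.03, limma, adjusted p = 0.481). With median scaling the groups overlapped, at 8.60, 8.67 and 8.58 in control and 8.56, 8.64 and 8.53 with TGF-β, and the difference was -0.05. The direction turned with the other background. At this spot the local background was 0.849 to 1.02 of the signal, at 391, 360 and 437 units in control and 331, 366 and 332 units with TGF-β. Corrected with it, miR-15b-5p was at 6.18, 6.54 and 6.60 in control and at 7.08, 6.71 and 6.77 with TGF-β, with every TGF-β array above every control array. That log2 difference was 0.41 with a standard error of 0.15, and it was not past the threshold (limma, adjusted p = 0.987). Only miR-15a-5p and miR-15b-5p had groups apart on the local background, in opposite directions, where 7.15% of 1455 miRNAs had groups apart.

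miR-195-5p gave signals of 245, 273 and 293 units in control and 236, 261 and 250 units with TGF-β. Its log2 levels were 7.98, 8.04 and 7.92 in control and 7.89, 7.77 and 7.81 with TGF-β, and the groups did not overlap. The log2 difference was -0.16 with a standard error of 0.071 (limma, adjusted p = 0.354). Its local background was 201, 169 and 226 units in control and 197, 134 and 184 units with TGF-β. On that background the log2 difference was -0.54 with a standard error of 0.47, the groups overlapped, and the exact permutation test gave p = 0.5 with n = 3 in each group.

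miR-497-5p, whose gene neighbours MIR195, gave spot signals of 50.3, 57.8 and 65.0 units in control and 51.9, 61.7 and 57.1 units with TGF-β. Log2 levels of 5.16, 5.39 and 5.22 in control and of 5.17, 5.31 and 5.08 with TGF-β overlapped. The log2 difference was -0.07 with a 95% interval from -0.31 to 0.16 (limma, adjusted p = 0.857), and it was 0.05 on the local background.

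The 2 arms from the 3′ side of their precursors were not lower with TGF-β when the blank-spot background and all arrays were used. Without control array 1 the log2 differences were 0.025 for miR-15b-3p and -0.042 for miR-16-2-3p. miR-15b-3p gave 56.2, 68.8 and 77.8 units in control and 66.6, 75.8 and 73.3 units with TGF-β. Its log2 levels were 5.41, 5.73 and 5.63 in control and 5.71, 5.67 and 5.73 with TGF-β, and the groups overlapped. The difference was 0.11 with a 95% interval from -0.12 to 0.34 (limma, adjusted p = 0.714), and on the local background it was 0.13. miR-16-2-3p gave 47.4, 55.7 and 68.1 units in control and 54.6, 59.2 and 61.2 units with TGF-β. Its log2 levels of 5.05, 5.30 and 5.33 in control and of 5.30, 5.23 and 5.30 with TGF-β also overlapped. The difference was 0.05 with a 95% interval from -0.19 to 0.28 (limma, adjusted p = 0.914), and on the local background it was -0.02.

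**Figure D3:**
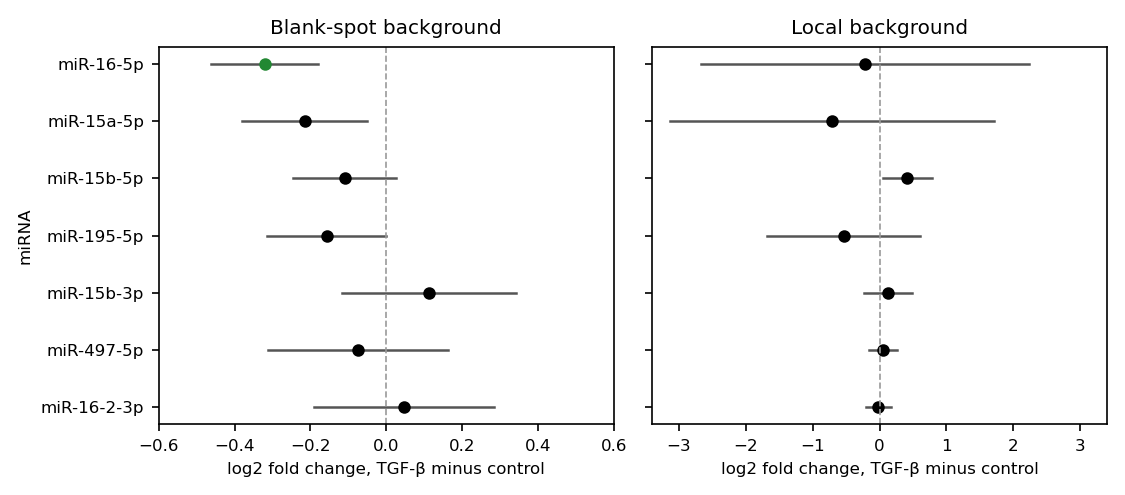
Log2 fold change of TGF-β against control for the 7 members with the blank-spot background (left) and the local background (right, on a wider axis), from 3 arrays per group. Points are differences of group means, bars are 95% intervals from limma, and green marks an adjusted p under 0.05, which miR-16-5p alone has, with the blank-spot background (-0.32), while miR-15b-5p lies at -0.11 on the left and at 0.41 on the right.

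The second question was whether members changed unequally, and 6 pairs were compared by the difference of their log2 levels within each array. Such a difference says nothing of which miRNA is more abundant, since probes differ in how brightly they bind. Of the 5p members of different loci, 3 pairs were compared, none of them with miR-16-5p. The change of miR-15a-5p minus that of miR-15b-5p was -0.11 (exact permutation test, p = 0.3, Benjamini-Hochberg adjusted 0.6). The change of miR-15a-5p minus that of miR-195-5p was -0.06, and the change of miR-15b-5p minus that of miR-195-5p was 0.05 (adjusted 0.6 for both, exact permutation test). Within the locus of MIR195 and MIR497 the change of miR-195-5p minus that of miR-497-5p was -0.08 (adjusted 0.6, exact permutation test). In each of these 4 pairs the control and TGF-β arrays overlapped with the blank-spot background. With the local background the change of miR-15a-5p minus that of miR-15b-5p was -1.12 and the change of miR-15b-5p minus that of miR-195-5p was 0.95, both with groups apart (exact permutation test, p = 0.1 each, the smallest possible).

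In both pairs of arms that were compared, the 5p arm moved down relative to the 3p arm, and the groups did not overlap. The miR-15b arms come from 1 precursor, whereas the miR-16-5p probe also reads MIR16-1. The arms of MIR15A were not among these pairs. For miR-16-5p minus miR-16-2-3p the log2 differences were 7.71, 7.23 and 7.20 in control and 7.006, 7.027 and 7.005 with TGF-β. The means were 7.38 ± 0.290 (SD, n = 3) and 7.01 ± 0.013 (SD, n = 3), a change of -0.37. For miR-15b-5p minus miR-15b-3p the differences were 3.29, 2.90 and 3.00 in control and 2.85, 2.86 and 2.80 with TGF-β. The means were 3.06 ± 0.202 (SD, n = 3) and 2.84 ± 0.032 (SD, n = 3), a change of -0.22. Each gave an exact permutation p of 0.1, the smallest the design allows, and an adjusted p of 0.3 over the 6 pairs, so neither passed a threshold of 0.05. Control array 1 was the farthest from the TGF-β arrays in both pairs, and without it the changes were -0.22 and -0.10.

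With the blank-spot background, the sign of these arm differences did not need a scale common to the arrays. The size of the miR-16 difference depended on the normalization. As a ratio of blank-subtracted signals within an array, miR-16-2-3p was 0.576%, 0.672% and 0.688% of miR-16-5p in control and 0.724%, 0.735% and 0.768% with TGF-β. miR-15b-3p was 10.4%, 13.1% and 12.7% of miR-15b-5p in control and 13.5%, 13.9% and 14.2% with TGF-β. All TGF-β arrays were above all control arrays in both ratios. Without normalization the change of miR-16-5p minus miR-16-2-3p was -0.21. With the local background it was -0.20 with overlapping groups (exact permutation test, p = 0.5), and the change of miR-15b-5p minus miR-15b-3p was 0.28, of the opposite sign. The miR-16-5p probe also reads transcripts of MIR16-1, whose own 3p arm, miR-16-1-3p, is described with the relatives.

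**Figure D4:**
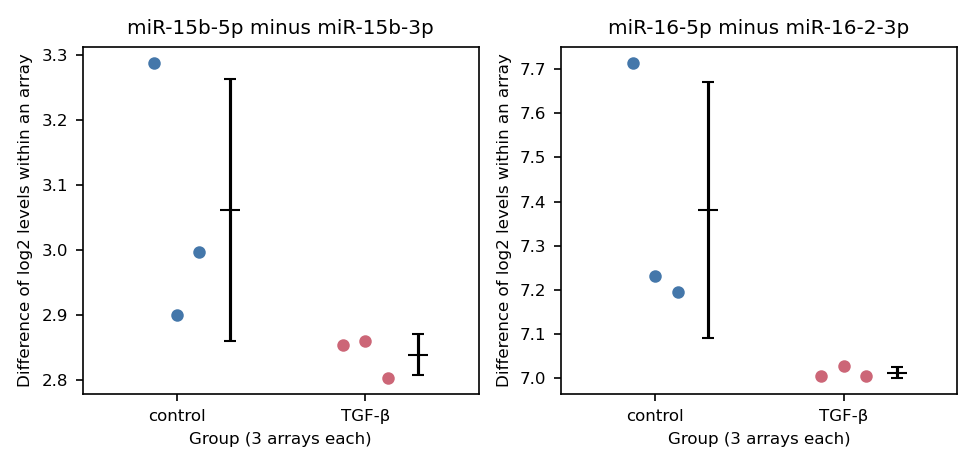
Difference of log2 levels (blank-spot background) between the 5p and the 3p arm within each array, for miR-15b-5p minus miR-15b-3p and miR-16-5p minus miR-16-2-3p, with points for the 3 control (blue) and 3 TGF-β (red) arrays and the group mean ± SD beside them. In both panels the 3 TGF-β points lie below the 3 control points and control array 1 is the highest, at 3.29 and 7.71, on axes that do not start at 0.

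miR-195-5p and miR-16-5p, which differ at 2 of 21 positions, had a signal ratio within 3.99% to 4.67% on all arrays. The blank-subtracted miR-195-5p signal was 4.48%, 4.67% and 3.99% of that of miR-16-5p in control and 4.46%, 4.40% and 4.37% with TGF-β. The groups overlapped and their means, 4.38% and 4.41%, differed by less than the spread between arrays (exact permutation test, p = 1). miR-15b-5p, which differs from miR-16-5p at 8 of 22 positions, was at 6.56% to 7.48% of it. miR-15a-5p, which differs from miR-16-5p at 6 of 22, was at 7.79% to 9.29% of it. A narrow range was therefore not particular to miR-195-5p. Whether part of the miR-195-5p signal came from miR-16-5p was not tested.

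The probes whose pattern over the 6 arrays was most like that of each member were sought among 1275 other miRNAs detected on all arrays, by the root mean square difference of centred log2 levels. miR-16-5p was closest to miR-615-3p (0.051 log2 units), miR-195-5p to miR-4485-5p (0.026) and miR-15b-5p to miR-8078 (0.033). miR-15a-5p was closest to miR-500b-5p (0.046) and miR-497-5p to miR-362-5p (0.042), while miR-15b-3p was closest to miR-380-3p (0.040) and miR-16-2-3p to miR-4776-5p (0.043). The median candidate differed by 0.195 to 0.253. Among the members themselves the 2 3p arms were close to each other (0.052, with 2 other miRNAs closer to either), and miR-15b-5p and miR-195-5p differed by 0.053, with 15 other miRNAs closer to the first and 7 closer to the second. miR-16-5p was nearest to miR-195-5p among the members, at 0.119, with 65 other miRNAs closer.

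Of the other arms and relatives of the family, 8 were on the array, 5 could be tested and none was called (limma, 0 higher and 0 lower, and 0 with the local background). The opposite arms of MIR15A, MIR195 and MIR497 were near the blank spots. miR-15a-3p gave 20.4 to 24.4 units, and its log2 difference was -0.37 with a standard error of 0.331 (limma, adjusted p = 0.712). That of miR-15a-5p was -0.22, so here the 5p arm did not fall more than the 3p arm. miR-195-3p and miR-497-3p were detected on 1 and 2 of the 6 arrays. miR-16-1-3p gave 22.3 to 30.0 units, and its log2 difference was 0.11 (limma, adjusted p = 0.904). miR-646 was not detected on any array.

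miR-424-5p and miR-503-5p, which come from a cluster on chromosome X, were the brightest of these relatives. miR-424-5p, which carries the seed of the members, gave 542, 632 and 695 units in control and 686, 817 and 617 units with TGF-β, which overlapped, with a log2 difference of 0.13 and a standard error of 0.094 (limma, adjusted p = 0.641). miR-503-5p, whose seed is close but not identical, gave 43.0, 49.7 and 54.5 units in control and 53.8, 55.4 and 57.9 units with TGF-β. After normalization its groups did not overlap, with a log2 difference of 0.28 (limma, adjusted p = 0.298), and on the local background it was -0.09. The remaining miRNA found with the seed, miR-6838-5p, gave 24.4 to 28.7 units and a log2 difference of -0.27 (limma, adjusted p = 0.583).

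miR-16-5p is abundant in blood cells, so the blood markers were read beside it. The red cell miRNA miR-451a gave 18.1 to 23.8 units on all arrays, close to the blank spots. miR-486-5p, which is also abundant in red cells, was well above them, at 35.3, 40.6 and 41.9 units in control and 34.4, 32.6 and 35.9 units with TGF-β. After normalization its groups did not overlap. Its log2 difference was -0.41 with a 95% interval from -0.73 to -0.08 (limma, adjusted p = 0.217), the same sign as that of miR-16-5p. With the local background it was 0.0041. Of the other 4 blood miRNAs tested, miR-150-5p had a log2 difference of 0.25 with a standard error of 0.164 and miR-142-3p one of 0.02 with a standard error of 0.505. miR-451a, detected on 2 of the 3 control arrays, had a log2 difference of 0.66 with a standard error of 0.446. For miR-223-3p, detected on 1 of the 3, it was 0.44 with a standard error of 0.511. These 4 had the opposite sign to miR-16-5p. Of 7 blood cell miRNAs, 3 were detected on all arrays and none of the 5 tested was called, and their summed level was 37.9 to 40.2 units in control and 32.0 to 43.4 units with TGF-β. The part of blood cell RNA in the result was not tested. The epithelial list had 2 of 6 miRNAs detected on all arrays, miR-141-3p on none and a summed level of 14.7 to 20.1 units in control and 17.8 to 19.6 units with TGF-β. None of 4 acinar and islet miRNAs was detected on all arrays (summed level 4 to 4.30 and 4.51 to 5.05 units). Of 4 fibroblast and smooth muscle miRNAs, 3 were detected on all arrays and none was called, with sums of 15.8 to 17.5 and 17.9 to 30.3 units. Among them miR-143-3p had a log2 difference of 1.57 with a 95% interval from 0.60 to 2.53 and groups apart (limma, adjusted p = 0.0919). It gave 35.3 units on TGF-β array 2, and with the local background its log2 difference was 0.026. The log2 differences of miR-145-5p, miR-214-3p and miR-199a-5p were 0.44, -0.0031 and -0.27.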

How the data were processed

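Total RNA of 3 control and 3 TGF-β samples was read on 6 arrays. The authors deposited the scanner output of each array, with the median intensity of 3200 spots and of their local background on a linear scale, and a table of processed intensities. That table was rebuilt within rounding as signal minus the mean of the blank spots, trimmed by 5% at each end, scaled to a median of 25 per array. Its method is not given in the sources used here.

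Here the trimmed blank mean (288 of 320 blank spots) was subtracted, the miRNA probes were quantile normalized, a floor of 1 was set and log2 values were compared with limma 3.58.1 in R 4.3.3 (lmFit, and eBayes with an intensity trend), with Benjamini-Hochberg adjustment over the 1457 miRNAs that all 3 arrays of 1 group or of both detected. Of the miRNA probes, 15 name several miRNAs, none of them a member. The local background was corrected with normexp (offset 50). Single values had exact permutation tests. Figures were drawn with matplotlib 3.10.9 in Python 3.11.15. The procedure was also run on simulated data with planted changes of 1 log2 unit and no slide effect. That run says nothing of differences as small as those of the members. The number of arrays limits the precision.

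All members, the other arms and relatives, miRNAs with the same seed, and for each member the 1 miRNA with the most similar pattern are named. The members, lists and settings were chosen with earlier results of these data known. Alternatives were other backgrounds, scalings, detection limits and limma settings, the deposited values, the methods' t-test, the replicate number as a block and each array left out in turn.

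The replicate number is also the position on the slide. Same-numbered arrays deviated from their group means with correlations of 0.13, 0.11 and -0.03 over 1282 miRNAs (0.30, 0.47 and 0.25 with the local background), so the numbers were not taken as pairs.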

Additional observations from a re-analysis of the deposited data

How the results depend on the processing

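The number of called miRNAs (58, 38 higher and 20 lower) was 0 with each of 3 corrections by the local background (35, 35 and 30 with an unadjusted p under 0.05), 35 without normalization (27 higher, 8 lower), 31 with miRNAs detected on at least 1 array, 31 without the trend and 17 with the methods' t-test. It was 44 with the deposited values (38 higher, 6 lower), where the median log2 difference over the 1402 miRNAs tested shifted to 0.11. Leaving out 1 array gave 29 (without TGF-β array 2) to 52, with 33 without TGF-β array 3. miR-16-5p stayed below 0 in all 23 alternatives and was called in 8. It was not called at -0.22, -0.23 and -0.23 with the local background (offset 50, offset 0, subtraction), -0.11 with median or 75th percentile scaling, -0.14 without normalization and -0.01 (-0.011) with the deposited values, below that shift. At -0.32 it was not called with miRNAs detected on at least 1 array (adjusted p = 0.115), without the trend (0.273) or by the methods' t-test (0.196). Leaving out 1 array gave -0.37 to -0.26, with the call kept without control array 1 or 3. miR-15b-5p turned to 0.41, 0.86 and 2.39 with the 3 local corrections and to 0.06 (0.057) with the deposited values. miR-497-5p turned to 0.05 (0.047), 0.13 and 0.77 with them and to 0.09 (0.093) with the deposited values, and miR-195-5p to 0.00060 with the deposited values. miR-16-2-3p turned to -0.02 (-0.022) and -0.04 (-0.044) with offsets of 50 and 0, and leaving out 1 array gave -0.042 (without control array 1) to 0.10 (0.098). With the local background the pair changes were -1.12 (miR-15a-5p minus miR-15b-5p), -0.17 (miR-15a-5p minus miR-195-5p), 0.95 (miR-15b-5p minus miR-195-5p), -0.59 (miR-195-5p minus miR-497-5p) and 0.28 (the miR-15b arms). miR-15a-5p stayed below 0 and miR-15b-3p above 0 in all 23 alternatives, neither called, but the first ranged from -0.86 with local subtraction to -0.08 with the deposited values, and the second from 0.025 without control array 1 to 0.98 with local subtraction (0.27 deposited). miR-16-2-3p was 0.19 with the deposited values and miR-497-5p -0.0081 with median scaling, and with local subtraction miR-16-2-3p was 0.29. Leaving out 1 array moved miR-497-5p between -0.13 and -0.0087 (without control array 2). It moved the pair changes between -0.0019 (without control array 2) and 0.079 for miR-15b-5p minus miR-195-5p, between -0.16 (without control array 1 or TGF-β array 1) and -0.046 (without TGF-β array 3) for miR-15a-5p minus miR-15b-5p, between -0.097 (without TGF-β array 2) and -0.0057 (without TGF-β array 3) for miR-15a-5p minus miR-195-5p, and between -0.14 (without TGF-β array 1) and -0.0090 (without TGF-β array 2) for miR-195-5p minus miR-497-5p. The replicate numbers, which are slide positions, were not taken as pairs, since 1 of 3 correlations was under 0.1 with the blank-spot background, although all 3 were above it with the local background. The replicate block gave 61 called miRNAs, an adjusted p of 0.00521 for miR-16-5p and no other call among the members, and with the local background it gave 0 called miRNAs, -0.22 for miR-16-5p, 0.41 for miR-15b-5p, -0.02 (-0.022) for miR-16-2-3p and 0.05 (0.047) for miR-497-5p. The causes of these shifts were not tested. Signal over the blank spots was least for the members below 80 units, and miR-15b-5p, at 370 to 467 units, had a local background of 0.849 to 1.02 of its signal.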
